A study of Mus musculus with 30 samples.

Results

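The genes described here encode core parts of the spliceosome and the SR splicing factors of mouse embryonic stem cells (mESCs). Members were the protein-coding genes whose GENCODE symbol begins with Snrp, Sf3a, Sf3b, Prpf, Srsf, Lsm or U2af. No measured value entered that rule, though it was chosen with earlier results of these data known. It found 62 genes among the 55401 genes of the count tables, of which 21897 are protein coding, and 2 further matching symbols were left out because their genes are not protein coding. By role, 8 members encode Sm core proteins, 4 encode proteins particular to the U1 or U2 snRNP, 9 encode SF3 subunits, 3 encode U2AF subunits, 13 carry the PRPF name, 11 are SR genes, 7 encode the LSm proteins of the U6 snRNP, 6 encode other LSm proteins, and 1, Lsmem1, matches by name alone.

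The spliceosome removes introns from pre-mRNA in ordered steps. The U1 snRNP and the U2AF heterodimer first mark the ends of the intron, the U2 snRNP with its SF3A and SF3B complexes then settles on the branch site, and the U4/U6.U5 tri-snRNP joins last, with PRPF8 at the catalytic centre. A ring of Sm proteins encircles the U1, U2, U4 and U5 snRNAs, a ring of LSm proteins binds the end of U6, and SR proteins bind exons and help to recruit the early factors. Much of this machinery is made at a high level in dividing cells, and several SR genes tune their own RNA through alternative exons that send it to decay.

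Nuclear RNA was sequenced in 30 libraries from 15 groups of 2 biological duplicates, to ask how acute loss of SRCAP, the remodeler that places the histone variant H2A.Z in nucleosomes, alters transcription. CGR8 is a wild-type mESC line, and SYAT is a line derived from 1 homozygous CGR8 clone in which both Srcap alleles carry a YPet-AID tag and in which a lentivirus with an EF1a promoter drives the OsTir1 receptor. Indole-3-acetic acid (IAA, 500 µM) then directs SRCAP to degradation, while SYAT control cells were kept in auxinole, which blocks OsTir1. All cells were moved to serum and LIF before the experiments. The groups were CGR8 without IAA and with 4 h of IAA, and SYAT control and SYAT with 2, 4, 6 or 8 h of IAA. SYAT cells with a stable mCherry mitotic degron reporter were stained with Hoechst. They were sorted in early G1 (EG1) or late G1 (LG1) without IAA or with 1 h of IAA. The last groups were SYAT cells carrying a transgene for wild-type (wtSRCAP) or catalytically dead (cdSRCAP) SRCAP without IAA or with 4 h of IAA. Transgene controls were also left in auxinole, so SYAT cells with and without IAA differ in auxinole as well. wtSRCAP and cdSRCAP are 1 clone each, with an mCherry fusion under a doxycycline-inducible TRE3G promoter, and all 4 of their groups received doxycycline (1 µg/mL) for 24 h and were sorted for mCherry. The remaining endogenous SRCAP of those clones still carries the AID tag. p-values here measure the spread between samples that the study calls biological duplicates.

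Exon counts per library ran from 45617992 to 60214521 in CGR8, from 17540823 to 22873893 in the SYAT time course, from 19740778 to 26672402 in the sorted cells and from 12236493 to 26369773 in the wtSRCAP and cdSRCAP cells. All 15 mESC markers listed, Pou5f1, Sox2, Nanog and Esrrb among them, were detected, and their summed level (RPKM, exon counts per kb of merged exon scaled to the library total) lay between 1608 and 3851. The summed level of 16 markers of other cell types lay between 4.29 and 19.7, with 13 of the 16 reaching 10 counts in some library. Srcap RNA, which the degron does not target, was not called in any comparison, with log2 fold changes from -0.09 to 0.32. In the wtSRCAP and cdSRCAP cells the 10 highest genes held 16.1% to 28.2% of exon counts in the replicate 1 libraries and 9.01% to 10.8% in the replicate 2 libraries. The members held 0.739% to 0.877% and 1.05% to 1.10%. By a low mitochondrial share of its exon counts, a single library in each of 3 tables stood apart. SYAT 6 h replicate 2 had 0.529%, against 1.80% to 2.44% in the other 9 libraries of the time course. CGR8 control replicate 1 had 0.575% against 1.06% to 2.01%, and wtSRCAP 4 h replicate 1 had 0.215% against 0.606% to 0.808%. Where leaving out one of these libraries ended a call, turned a direction or moved the exon or intron per exon fold change of a named member by more than 1.5 times, the value without it is given.

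In SYAT control cells the spliceosome genes were expressed well above the typical gene. Their median level was 25.4 RPKM over the 61 members tested, against 3.96 over the 14239 protein-coding genes tested. The members had less intron sequence, with a median of 7298 bases against 18829, and slightly less merged exon sequence, 3561 against 4390 bases. These are descriptions of annotated gene structure and carry no test.

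Prpf8, the largest U5 snRNP protein and the scaffold of the active site, stood highest at 226 and 243 RPKM in the 2 SYAT control libraries. Srsf2, an SR protein that binds exonic enhancers, followed at 167 and 176, and Lsm4, a subunit of the U6 ring, at 156 and 148. The replicates of each of these genes did not overlap those of the next. Across the whole order 24 of 61 neighbouring pairs were separated in this way, and the other neighbours did not differ beyond their spread.

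**Figure D1:**
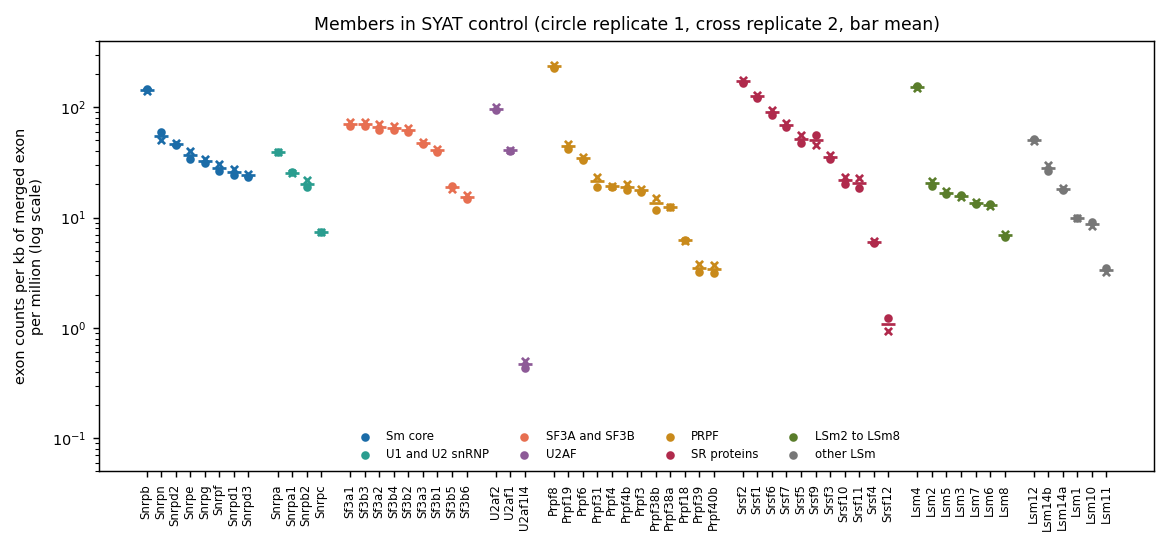
Level of members in SYAT control cells, in RPKM (exon counts per kb of merged exon, scaled to the library total) on a log axis, grouped by role, with 1 point for each of the 2 libraries. Prpf8, Srsf2 and Lsm4 stand highest, U2af1l4 and Srsf12 lowest, and Lsmem1, at 0 in both libraries, and 1 further member are left out.

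Within each role the spread between genes was wide. Sm core genes ran from 24.1 (Snrpd3) to 142 (Snrpb), on the same RPKM scale. SF3 genes ran from 15.3 (Sf3b6) to 71.1 (Sf3a1), so that Sf3b1, the subunit that clasps the branch site, sat inside that range at 40.5. PRPF genes ran from 3.45 (Prpf40b) to 234 (Prpf8), and SR genes from 1.07 (Srsf12) to 172 (Srsf2).

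The U2AF large subunit gene U2af2 (96.9) stood above the small subunit gene U2af1 (40.6), and U2af1l4, a U2af1 paralog, was near the bottom at 0.467 RPKM. The LSm genes of U6 other than Lsm4 lay between 6.93 (Lsm8) and 20.5 (Lsm2). Lsm10 and Lsm11, which replace SmD1 and SmD2 in the U7 snRNP of histone mRNA processing, lay at 8.72 and 3.35. Lsmem1, a membrane protein gene that shares the Lsm letters but not the function, had 0 exon counts in both SYAT control libraries and at most 3 in any library, and it was not tested.

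Some members share sequence with other genes, which bears on reads of 75 bases. Of the 62 members, 34 shared no 75-base stretch of any annotated transcript with a transcript of another gene, and 14 shared more than 5% of such stretches. The highest shares were 38.1% for Sf3b4 (with Gm7935), 35.3% for U2af1l4 (with Gm49396), 18.9% for Snrpn (with Snurf, Gm38393 and Gm5802), 18.8% for Snrpf (with Gm13092) and 18.7% for U2af1 (with 3 other genes). Their counts are uncertain to that extent. Snrpb and Snrpn, which encode near-identical Sm proteins, shared 0 stretches of that length and a longest common run of 32 bases, and U2af1 and U2af1l4 shared 0. Snrpn also overlaps Snurf on its own strand, U2af1l4 overlaps Gm49396 on its own strand and Psenen on the other, and Srsf2 overlaps Mettl23 and Mfsd11 on the other strand.

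The central question for these genes is whether their nuclear RNA moved when SRCAP was degraded. No member passed the main test, which has no replicate block, in any of the 12 comparisons of exon counts. None passed it in either interaction test, or in the test for any time of IAA in SYAT. A gene was called at a log2 fold change beyond 0.5 in either direction and a Benjamini-Hochberg adjusted p below 0.05 in edgeR's quasi-likelihood test. For the sorted cells the study's own looser rule was used, a log2 fold change beyond 0.25 and an unadjusted p below 0.05. The result depends on the model. With the replicate number in it, 1 member each was called in CGR8 (Snrpb2), SYAT at 6 h (Srsf12), LG1 against EG1 control (Prpf40b) and IAA in wtSRCAP (Prpf39). The shares of all genes called there were 2.47%, 4.29%, 7.31% and 3.2%. In bulk RNA, fewer cells of a kind and less RNA per cell cannot be told apart.

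The background of called genes was also small. Of all genes tested, 0.00988% were called after 4 h of IAA in CGR8, 0% at each of 2 h and 4 h in SYAT, 0.0677% (13 of 19205) at 6 h and 0.00521% at 8 h. The test over all 4 times together called 0% of all genes at an adjusted p below 0.05. In the transgene cells the shares were 0.00523% for IAA in wtSRCAP, 0% for IAA in cdSRCAP, 0% for cdSRCAP against wtSRCAP without IAA, 0.00523% for the same pair with IAA and 0% for the interaction. Under the looser rule of the sorted cells, 1.22% of genes were called for IAA in EG1, 1.02% for IAA in LG1, 1.44% for LG1 against EG1 without IAA and 0.699% for the interaction. The members' count of 0 of 61 is to be read against these small shares.

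**Figure D2:**
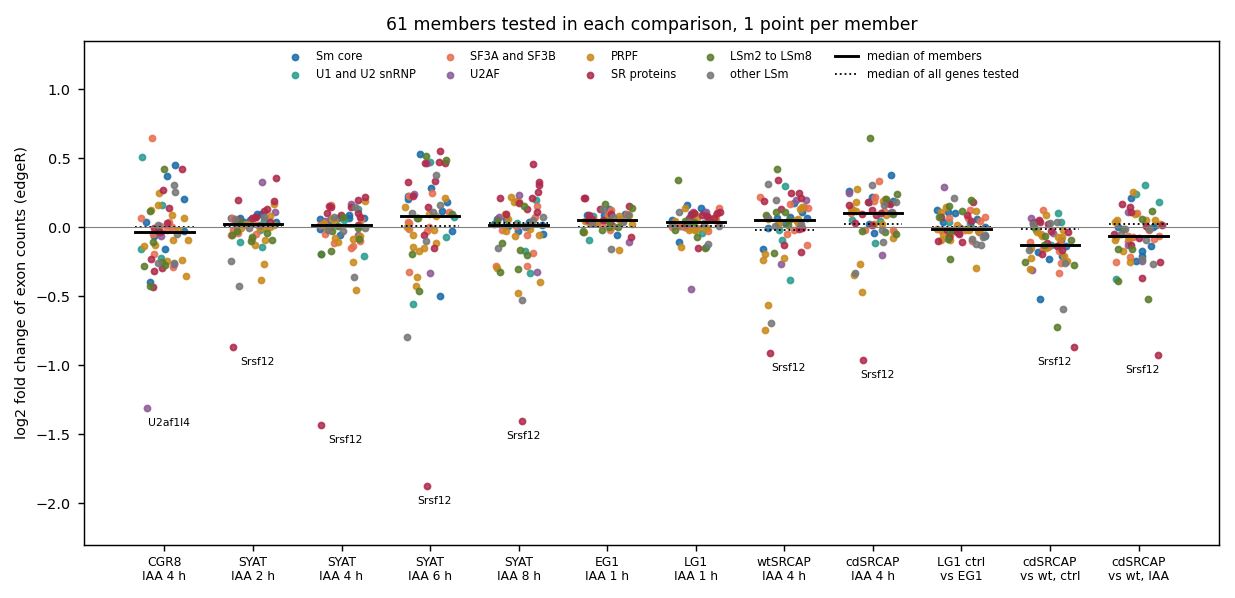
log2 fold change of each of the 61 tested members in the 12 comparisons of exon counts, 1 point per gene, with the median of the members and of all genes tested. The member medians lie between -0.13 and 0.10, and most points lie within 0.5 of 0 in every comparison.

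The members' median log2 fold change stayed near that of all genes with all libraries in the fit. It was -0.03 against 0.00 in CGR8, and 0.02, 0.01, 0.08 and 0.01 against 0.00, 0.02, 0.01 and 0.03 after 2, 4, 6 and 8 h in SYAT. IAA moved it to 0.05 in EG1 and 0.04 in LG1, against 0.00 and 0.01. In wtSRCAP it was 0.05 against -0.02 and in cdSRCAP 0.10 against 0.02. LG1 against EG1 without IAA gave -0.01 against 0.00, and cdSRCAP against wtSRCAP with IAA gave -0.06 against 0.02. The largest gap of the 12 was between cdSRCAP and wtSRCAP without IAA, -0.13 against -0.02. Without wtSRCAP 4 h replicate 1 the median for IAA in wtSRCAP was 0.21 against -0.02, and that between the clones with IAA was -0.26 against -0.01. Without the libraries that stand apart in CGR8 and at 6 h in SYAT it was 0.03 against 0.01 and 0.00 against 0.02. The median standard error of a single member was 0.15 in CGR8, 0.16 in the SYAT time course, 0.22 in the sorted cells and 0.27 in the transgene cells.

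At an unadjusted p below 0.05, without regard to size, the members' counts also lay near or below the background. After 4 h of IAA in SYAT 2 of 61 members passed, both lower, with 9.09% of all genes passing, and at 2 h none did, with 3.92%. After 6 h 10 members passed, 3 lower and 7 higher, with 16.1% of all genes. After 8 h 5 passed, 3 lower and 2 higher, with 13.6%. In the test over all times 1 member passed, Srsf12, with 7.63% of all genes. DESeq2's Wald test called no member in any exon comparison but SYAT at 6 h, where it called Srsf12.

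Srsf12 had the largest fold change of any member at every time of IAA in SYAT. It encodes an SR-related protein that is known mainly as a repressor of splicing, and it lies on chromosome 4 (mm10 positions 33208991 to 33233340, plus strand). Its normalised exon counts were 77.6 and 56.5 in SYAT control, 45.7 and 27.9 at 2 h, 31.9 and 18.0 at 4 h, 26.1 and 10.0 at 6 h and 27.0 and 23.5 at 8 h. Every IAA library lay below both controls. All times share the same 2 controls, and the share of all genes with such a pattern was not counted, here or for the genes below. The log2 fold changes were -0.87 ± 0.46 (SE, n = 2 against 2), -1.43 ± 0.48, -1.87 ± 0.50 and -1.40 ± 0.47, with adjusted p of 1.00, 0.367, 0.126 and 0.234 by edgeR with Benjamini-Hochberg adjustment. Few reads stand behind each value.

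The Srsf12 call at 6 h depended on the model. DESeq2 gave a log2 fold change of -1.88 with an adjusted p of 0.0302, and 3.37% of all genes were called by that test. Without SYAT 6 h replicate 2 the edgeR log2 fold change was -1.35 with an adjusted p of 0.337, and without SYAT 6 h replicate 1 it was -2.72 with an adjusted p of 0.0180. DESeq2 with the replicate number in the model and shrunken fold changes also called it, at -0.79 and an adjusted p of 0.00885, where 5.5% of all genes were called. edgeR with the replicate number in the model called it beside 4.29% of all genes, and edgeR with no filter on low counts beside 2.47%. With no filter the test over all times called Srsf12 and Lsm4, beside 1.92% of all genes.

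Prpf18, a step-2 splicing factor that helps to position the 3' splice site, also stayed on the low side through the time course. It lies on chromosome 2 (4622058 to 4652113, minus strand). Its normalised exon counts were 671 and 631 in SYAT control, 512 and 485 at 2 h, 497 and 454 at 4 h, 414 and 599 at 6 h and 504 and 430 at 8 h. All 8 IAA libraries lay below both controls, and the 599 belonged to the 6 h replicate that stands apart. The log2 fold changes were -0.38, -0.45, -0.36 and -0.48, each with an SE of 0.19, and the edgeR adjusted p-values were 1.00, 0.503, 0.376 and 0.309. Without 6 h replicate 2 the value at 6 h was -0.65 (adjusted p = 0.161).

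Lsm10 encodes the U7 counterpart of SmD1. Its normalised counts were 173 and 153 in SYAT control, 106 and 136 at 2 h, 128 and 125 at 4 h, 112 and 75.3 at 6 h and 118 and 107 at 8 h. Again every IAA library lay below both controls. The log2 fold change was -0.80 ± 0.26 at 6 h (edgeR adjusted p = 0.185) and -0.54 there without replicate 2.

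**Figure D3:**
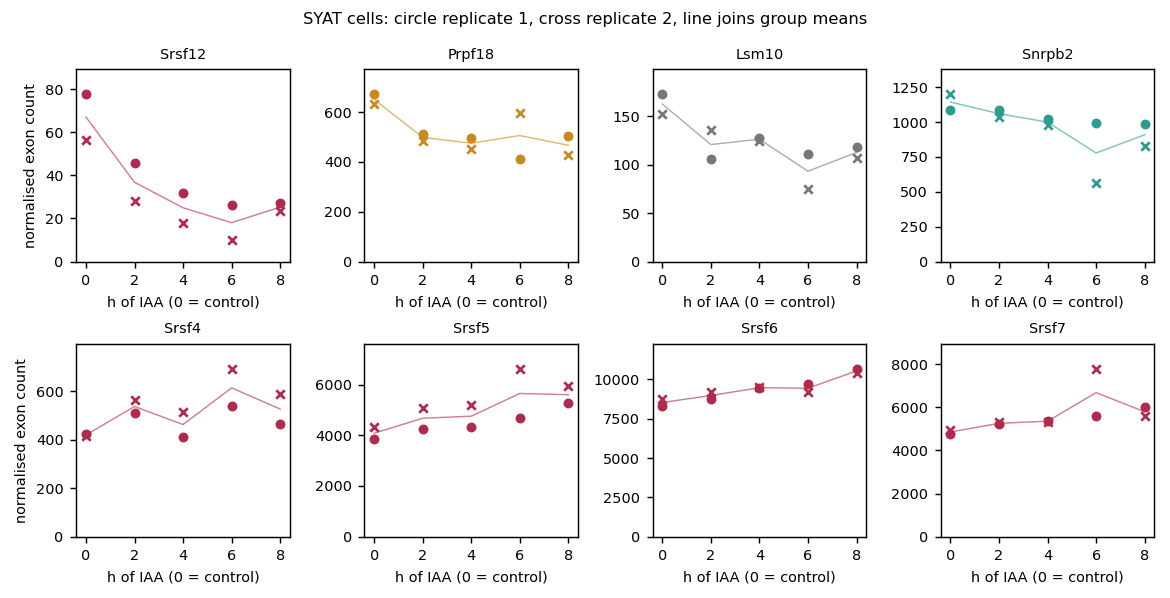
Normalised exon counts of Srsf12, Prpf18, Lsm10, Snrpb2, Srsf4, Srsf5, Srsf6 and Srsf7 in SYAT cells after 0 (control), 2, 4, 6 and 8 h of IAA, 1 point per library and a line through the means of the 2 libraries. Srsf12, Prpf18, Lsm10 and Snrpb2 lie below their controls in all 8 IAA libraries, and Srsf5, Srsf6 and Srsf7 lie above theirs at 6 and 8 h. All times share the same 2 controls, and the share of all genes with these patterns was not counted.

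The SR genes other than Srsf12 leaned the other way. At 2, 4 and 8 h 10 of 11 SR genes had a fold change above 0, and 8 of 11 did at 6 h. Their medians were 0.08, 0.10, 0.33 and 0.21 in time order, against 0.00, 0.02, 0.01 and 0.03 for all genes. At an unadjusted p below 0.05 there were 4 higher at 6 h (Srsf3, Srsf4, Srsf5 and Srsf7) and 2 higher at 8 h (Srsf5 and Srsf6), while Srsf12 was lower at 4, 6 and 8 h. Of all genes, 7.93% were higher at that threshold at 6 h and 5.13% at 8 h, and 6%, 8.21% and 8.44% were lower at 4, 6 and 8 h. Without 6 h replicate 2 no SR gene was higher at that threshold at 6 h (4.3% of all genes), Srsf12 was again lower (7.96%), and the SR median was 0.14 with 9 of 11 above 0. The 4 time points share the same 2 control libraries, so these counts are not separate observations.

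Srsf7, which binds GA-rich exonic enhancers and takes part in mRNA export, had 4759.7 and 4959 normalised counts in control, 5213 and 5311 at 2 h, 5385 and 5340.1 at 4 h, 5603 and 7771 at 6 h and 5998 and 5601 at 8 h. All 8 IAA libraries lay above both controls. Its log2 fold change was 0.46 ± 0.15 at 6 h (edgeR adjusted p = 0.189) and 0.21 there without replicate 2.

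Srsf5, an SR protein that moves between nucleus and cytoplasm, had 3836 and 4327 normalised counts in control, 4701 and 6605 at 6 h and 5257 and 5948 at 8 h. The groups at 6 and 8 h did not overlap the control. The log2 fold changes there were 0.47 ± 0.18 and 0.46 ± 0.18, with edgeR adjusted p of 0.246 and 0.309, and the 6 h value without replicate 2 was 0.21. Srsf6, a regulator of alternative exons, had 8304 and 8763 in control and 10646 and 10438 at 8 h, a log2 fold change of 0.30 ± 0.11 (edgeR adjusted p = 0.265).

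Srsf4, one of the largest SR proteins, had 423 and 417 normalised counts in control, 511 and 564 at 2 h, 411 and 516 at 4 h, 538 and 691 at 6 h and 464 and 590.3 at 8 h. A single 4 h library lay below the controls and the other 7 IAA libraries lay above. At 6 h the fitted value was 0.55 ± 0.19 on the log2 scale (edgeR adjusted p = 0.216), and 0.36 there without replicate 2.

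RNA of the Sm core genes moved little at 2, 4 and 8 h. The 8 Sm core genes had log2 fold changes between 0.02 and 0.10 at 2 h, between -0.06 and 0.09 at 4 h and between -0.05 and 0.06 at 8 h. At 6 h they spread from -0.50 to 0.53, with Snrpe at 0.53 ± 0.21 (edgeR adjusted p = 0.254). Without 6 h replicate 2 they ran from 0.03 to 0.21, with Snrpe at 0.17.

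Snrpb2 encodes the U2 B'' protein that binds U2 snRNA. Its normalised counts were 1089 and 1199 in SYAT control, 1087 and 1034 at 2 h, 1024 and 976 at 4 h, 994 and 563 at 6 h and 987 and 831 at 8 h. All IAA libraries lay below both controls, the 2 h replicate 1 by only a few counts. At 6 h its log2 fold change was -0.55 ± 0.23 (edgeR adjusted p = 0.271) and -0.20 without replicate 2. Its partner Snrpa1, the U2 A' protein, was at 0.47 ± 0.21 at 6 h (adjusted p = 0.306) and at 0.03 without replicate 2.

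The 9 SF3 genes stayed within a log2 fold change of -0.08 to 0.07 at 2 h, -0.15 to 0.16 at 4 h, -0.32 to 0.25 at 6 h and -0.29 to 0.19 at 8 h. Sf3b1, the subunit most often mutated in myeloid disease, had 9073 and 9132 normalised counts in control and 10228 and 10043 at 8 h. Sf3a3, which bridges the SF3A complex to the U2 snRNP, had 2633 and 2617 in control and 2214 and 2094 at 8 h, a log2 fold change of -0.29 ± 0.13 (edgeR adjusted p = 0.355).

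U2af1, the subunit that reads the AG at the 3' splice site, had 2105 and 2064 normalised counts in SYAT control, 2336 and 3426 at 6 h and 2515 and 2389 at 8 h. Both 6 h libraries lay above the controls, the one that stands apart by the most. The log2 fold change at 6 h was 0.47 ± 0.17 (edgeR adjusted p = 0.215) and 0.17 without replicate 2. Prpf8, the highest member, had 34144 and 34976 in control and 34860.3 and 31659.9 at 8 h.

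SYAT 6 h replicate 2 weighed heavily on the 6 h counts. With it left out, members at an unadjusted p below 0.05 went from 10 (3 lower and 7 higher) to 5, all of them lower, while all genes at that threshold went from 3099 of 19205 to 2517 of 20523. With replicate 1 left out instead, so that the library that stands apart represented 6 h by itself, edgeR called 20 members and 15.4% of all genes, and the test over all times called 12 members and 8.87% of all genes. Lsm4 gives the scale of that library, with 2527 and 6192.5 normalised counts in the 2 libraries at 6 h against 3273 and 2965 in control, a log2 fold change of 0.48 that became -0.30 without replicate 2. The part of the low mitochondrial share in these values was not tested.

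CGR8 cells have no degron, so 4 h of IAA there shows what the compound does without loss of SRCAP. No member was called, and 6 of 61 passed an unadjusted p of 0.05, 4 lower (Srsf4, Lsm4, Snrpn and Prpf40b) and 2 higher (Snrpb2 and Sf3b6), with 9.16% of all genes passing. Without control replicate 1 the count was again 6, but split as 2 lower and 4 higher.

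Sf3b6, the SF3B subunit that contacts the branch-site adenosine, had 2043 and 1684 normalised counts in the CGR8 controls and 2257 and 3571 with IAA. The groups did not overlap, and 1 IAA library stood far above the rest. The log2 fold change was 0.65 ± 0.22 (edgeR adjusted p = 0.540). With control replicate 1 left out it was 0.81 with an adjusted p of 0.0122, so Sf3b6 was then called, beside 0.734% of all genes. It was also called with no filter on low counts, beside 1.26% of all genes.

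Snrpb2 had 2086 and 2563 normalised counts in the CGR8 controls and 2975 and 3634 with IAA, a log2 fold change of 0.51 ± 0.17 (edgeR adjusted p = 0.540). It was higher in both IAA libraries, the opposite side from its values in SYAT at the same 4 h. Srsf4 had 1789 and 1681 in control and 1323 and 1243 with IAA (-0.44 ± 0.15, adjusted p = 0.540). In SYAT at 4 h its IAA libraries lay on both sides of the controls.

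Snrpn, the paternally expressed paralog of Snrpb, had 6252 and 5354 normalised counts in the CGR8 controls and 4697 and 4124 with IAA (-0.40 ± 0.15, edgeR adjusted p = 0.540). Lsm4 had 12578 and 9072 in control and 8832 and 7239.8 with IAA (-0.43 ± 0.18, adjusted p = 0.543). The higher control was the library that stands apart, and without it the value was -0.16 (adjusted p = 0.850). The lowest fold change, -1.31 for U2af1l4, rests on 8 and 56 counts in control against 3 and 27 with IAA, and was -2.03 without control replicate 1.

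With control replicate 2 left out, so that the library that stands apart was the only control, 7 members were called, beside 10.9% of all genes. Snrpf, Snrpb2, Snrpd1 and Srsf10 were then higher, and Lsm4, Lsm7 and Srsf9 lower. With the replicate number in the model 1 member, Snrpb2, and 2.47% of all genes were called.

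Of the genes that were low throughout the SYAT course, Prpf18 was also low in CGR8, Lsm10 was high, and Srsf12 had overlapping groups. Srsf12 had 12.3 and 41.2 normalised counts in the CGR8 controls and 34.0 and 38.3 with IAA (0.42, or -0.17 without control replicate 1), and Lsm10 had 563 and 459 against 656 and 603 (0.30 ± 0.20, edgeR adjusted p = 0.662, or 0.47 without that library). Prpf18 had 2414 and 2085 against 1990.1 and 1821, with both IAA libraries below both controls (-0.24 ± 0.15, adjusted p = 0.655, or -0.12 without it). The CGR8 and SYAT libraries are in separate tables, and the difference between the lines was not tested.

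**Figure D4:**
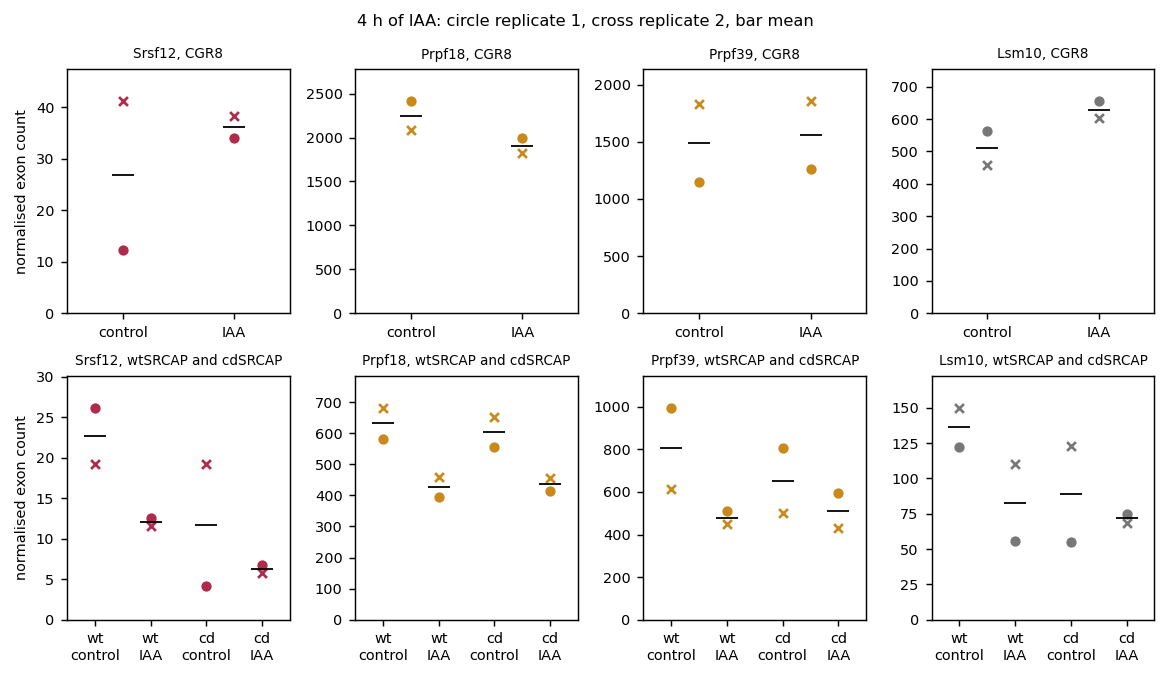
Normalised exon counts of Srsf12, Prpf18, Prpf39 and Lsm10 without IAA and after 4 h of IAA in CGR8, wtSRCAP and cdSRCAP cells, 1 point per library. In the wtSRCAP and cdSRCAP cells Prpf18 is below both of its controls in both IAA libraries, whereas Lsm10 is above them in CGR8.

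The wtSRCAP and cdSRCAP cells ask whether a transgene with or without catalytic activity alters the response to loss of the endogenous protein. In wtSRCAP cells 2 of 61 members passed an unadjusted p of 0.05, Prpf18 and Prpf39, both lower, with 7.4% of all genes passing. Without 4 h replicate 1, the library that stands apart, no member passed. In cdSRCAP cells none passed, with 5.64% of all genes. Between cdSRCAP and wtSRCAP none passed without IAA (3.82% of all genes) or with IAA (5.03%), and none passed in the interaction (0.785%). DESeq2 called none of the members in these comparisons without the replicate number in the model.

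Prpf18 was on the low side in both clones. Its normalised counts were 582 and 683 in wtSRCAP without IAA and 396 and 459 with IAA, and 555 and 653 against 413 and 458 in cdSRCAP. All 4 IAA libraries lay below all 4 controls. The log2 fold changes were -0.56 ± 0.22 (edgeR adjusted p = 0.661) and -0.47 ± 0.22 (adjusted p = 0.900), and their difference was 0.09 ± 0.31 (adjusted p = 1.00), or -0.06 without wtSRCAP 4 h replicate 1.

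Prpf39, which works in the U1 snRNP, had 996 and 613 normalised counts in wtSRCAP without IAA and 511 and 449 with IAA. The controls differed from each other by more than the lower control differed from the IAA libraries. The log2 fold change was -0.75 ± 0.32 (edgeR adjusted p = 0.666). Same-numbered libraries of this table deviated together, and with the replicate number in the model the value was -0.69 with an adjusted p of 0.0316, so Prpf39 was then called, beside 3.2% of all genes. DESeq2 with the replicate number and shrinkage called it as well, at -0.58 and an adjusted p of 0.0221, beside 3.87% of all genes. In cdSRCAP it had 804 and 499 against 596 and 429 (-0.34 ± 0.32, edgeR adjusted p = 0.996 without the replicate number), and in the SYAT course 775 and 879 in control against 710.3 and 869 at 4 h.

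Srsf12 had 26.2 and 19.2 normalised counts in wtSRCAP without IAA and 12.6 and 11.5 with IAA (-0.91 ± 0.78, edgeR adjusted p = 0.850). In cdSRCAP it had 4.15 and 19.2 against 6.73 and 5.77 (-0.97 ± 0.81, adjusted p = 0.996). The cdSRCAP controls spanned the IAA libraries, so no direction can be read there. Lsm10 had 123 and 150.2 against 55.6 and 110 in wtSRCAP (-0.69 ± 0.46, adjusted p = 0.778, or -0.29 without 4 h replicate 1) and 55.4 and 123 against 74.98 and 68.4 in cdSRCAP.

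On the higher side, Srsf9 in wtSRCAP had 1228 and 1194 normalised counts without IAA and 1696 and 1379 with IAA (0.34 ± 0.20, edgeR adjusted p = 0.753, or 0.21 without 4 h replicate 1). Prpf4b, a kinase of the tri-snRNP, had the largest interaction on the higher side by p, 0.50 ± 0.30 (adjusted p = 1.00, or 0.24 without wtSRCAP 4 h replicate 1), from 2386 and 2304 to 1711 and 2306 in wtSRCAP and from 2083 and 1877 to 2496 and 2290.2 in cdSRCAP. Lsm4 in wtSRCAP with IAA had 5609 and 3161, the higher value again in the library with the lowest mitochondrial share.

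Cells sorted in G1 after 1 h of IAA ask about loss of SRCAP during mitosis (EG1) or within G1 (LG1). In the exon columns no member was called. In EG1, 49 of 61 members had a fold change above 0, with a median of 0.05 against 0.00 for all genes. The extremes there were Prpf39 at -0.16 ± 0.17 and Srsf5 at 0.21 ± 0.21. In LG1 they were U2af1l4 at -0.45 ± 0.38, from 19 and 28 counts to 18 and 18, and Lsm5, a subunit of the U6 ring, at 0.34 ± 0.28, from 85.8 and 129 to 111 and 161 normalised counts. edgeR's adjusted p was 1.00 for all 4. No member had an unadjusted p below 0.05 in either phase or in LG1 against EG1.

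Lsm10 took opposite sides in the sorted phases. Its normalised counts were 212 and 212 in EG1 control and 218 and 246 with IAA, and 246 and 244 in LG1 control and 221 and 230 with IAA. The difference between the phases was -0.25 ± 0.22 (edgeR interaction, unadjusted p = 0.281).

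Between the phases without IAA, Prpf40b, a U1-associated factor, had 568 and 623 normalised counts in EG1 and 508 and 464 in LG1 (-0.29 ± 0.13, edgeR unadjusted p = 0.0586). The groups did not overlap. Same-numbered libraries of the sorted table also deviated together, and with the replicate number in the model the value was -0.29 with an unadjusted p of 0.00488, so Prpf40b was called under the looser rule, beside 7.31% of all genes. Its adjusted p there was 0.142.

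Further lists of splicing genes give the rest of the pathway. Of 84 other spliceosome genes, those with an unadjusted p below 0.05 in SYAT numbered 7 on the low side and 1 on the high side at 4 h, 11 against 5 at 6 h, and 8 against 2 at 8 h. The shares of all genes on the low side were 6%, 8.21% and 8.44% at those times, and on the high side 3.09%, 7.93% and 5.13%. Of 46 splicing regulators, mostly hnRNPs and tissue-specific factors, none was lower and 3, 11 and 4 were higher at those times. Of 19 genes of snRNP assembly and snRNA processing, 1 was lower at 4 h, 1 higher at 6 h and none at 8 h. Without 6 h replicate 2 the counts at 6 h were 11 lower and 2 higher for the other spliceosome genes, 0 and 4 for the regulators and 2 and 0 for the assembly genes, with 7.96% of all genes lower and 4.3% higher. The call in these lists was Rnpc3, the U11/U12 RNA-binding protein of the minor spliceosome, lower in LG1 with IAA under the looser rule. It is 1 of 84 genes, where 0.733% of all genes were called lower.

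Rnpc3 had 755 and 733 normalised counts in LG1 control and 609.8 and 587 with IAA, with no overlap (-0.31 ± 0.12, edgeR unadjusted p = 0.0355). Among the other spliceosome genes Txnl4b, a U5-like thioredoxin-fold protein, had 219 and 219 in SYAT control, 136 and 142 at 2 h, 118 and 115 at 4 h, 99.6 and 118 at 6 h and 132 and 95.7 at 8 h. All 8 IAA libraries lay far below both controls. Its log2 fold change was -1.01 ± 0.23 at 6 h (edgeR adjusted p = 0.0892), and -1.44 ± 0.35 with IAA in cdSRCAP (adjusted p = 0.721). The IAA effect in cdSRCAP minus that in wtSRCAP was -1.12 ± 0.49 (edgeR interaction, unadjusted p = 0.0474), a threshold of 0.05 that 0.785% of all genes passed. With IAA, Txnl4b was lower in cdSRCAP than in wtSRCAP (-1.03 ± 0.36, edgeR adjusted p = 0.951).

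Crnkl1, a scaffold of the activated spliceosome, had 1443 and 1598 normalised counts in SYAT control and 1058 and 914 at 6 h (-0.63 ± 0.13, edgeR adjusted p = 0.0752). Among the regulators Esrp2, an epithelial splicing regulator, had 424 and 441 in control and 587 and 658 at 6 h (0.52 ± 0.15, adjusted p = 0.155). Ewsr1 had 6213 and 6340.3 in control and 8161 and 8199 at 8 h (0.38 ± 0.11, adjusted p = 0.170). For each of these genes both IAA libraries lay on 1 side of both controls, yet none was called.

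Intron counts per exon count compare intronic with exonic reads of the same gene in nuclear RNA. The exonic reads come from unspliced as well as spliced RNA. They could be read in CGR8, LG1 and the transgene cells. In the SYAT time course and EG1 the deposited intron columns also hold exonic reads. Sf3b5, which has a single exon and so no intron, had 1446 intron and 1446 exon counts in SYAT control replicate 1, but 0 intron counts in every CGR8, LG1, wtSRCAP and cdSRCAP library.

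The members' ratio was low. Over 16 libraries the member median lay between 0.0681 and 0.275 intron counts per exon count, and the median of all genes tested lay between 0.180 and 0.554, higher in each library. Intron length differs between the sets, as given above, and enters the ratio directly.

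**Figure D5:**
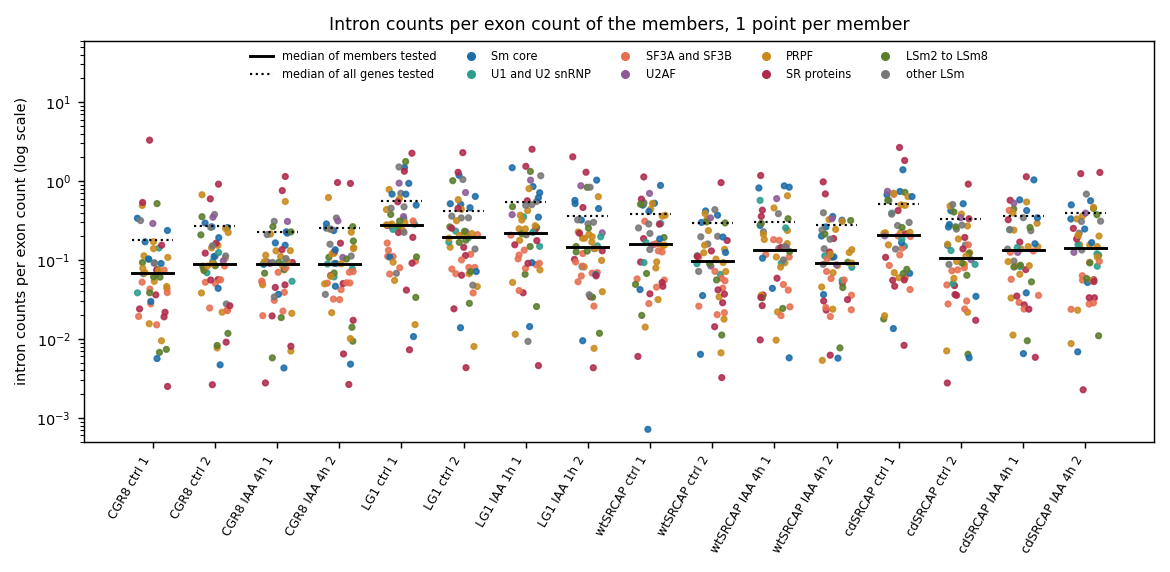
Intron counts per exon count of the tested members on a log axis, 1 column of points per library of CGR8, LG1, wtSRCAP and cdSRCAP, with the median of the members and of all genes tested. The member median is below that of all genes in all 16 libraries, and 2 values of 0 (Lsm10 in a CGR8 control, Lsm2 in wtSRCAP with IAA) are not drawn.

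Srsf6 and Snrpd2 were among the 3 lowest members in the CGR8, LG1 and wtSRCAP controls. Srsf6 had 0.00250 and 0.00263 intron counts per exon count in the CGR8 controls and Snrpd2 0.00565 and 0.00470. Srsf4 was among the highest, with 0.536 and 0.914 in CGR8, 2.25 and 2.29 in LG1 and 1.13 and 0.956 in wtSRCAP. With all annotated exons merged, Srsf6 has 784 intronic bases, Snrpd2 has 1203 and Srsf4 has 24529. Prpf8, with 15173 intronic bases, was also among the 3 lowest in the LG1 controls (0.0152 and 0.00803) and the wtSRCAP controls (0.0141 and 0.00668).

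The ratio was not called for any member in 6 comparisons, of 54 members tested in CGR8 and LG1 and 52 in the transgene cells. edgeR called 0.0329% of all genes in CGR8, 0% in LG1, 0% in wtSRCAP, 0% in cdSRCAP, 0% between the clones without IAA and 0% with IAA. At an unadjusted p below 0.05, 1 member was lower and 3 were higher in CGR8 (5.56% of all genes), 4 were lower in LG1 (2.49%), none passed in wtSRCAP (2.71%), none in cdSRCAP (1.72%), none between the clones without IAA (1.52%), and 1 was lower with IAA (3.47%).

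Snrpb2 in LG1 had the smallest p of any member. It had 0.284 and 0.232 intron counts per exon count in control and 0.149 and 0.0822 with IAA, from 182 and 193 intron counts against 99 and 68. Both IAA libraries lay below both controls, while its exon counts of 640 and 831 in control and 665 and 827 with IAA overlapped. The log2 difference was -1.11 ± 0.22 (edgeR unadjusted p = 0.00199, adjusted p = 1.00). Prpf40b went from 0.596 and 0.439 to 0.423 and 0.211 (-0.66 ± 0.23, adjusted p = 1.00).

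In CGR8, Lsm6 had 0.0928 and 0.208 intron counts per exon count in control and 0.227 and 0.265 with IAA (0.73 ± 0.25, edgeR adjusted p = 0.873), the lowest value again in control replicate 1, and 0.40 without that library. Srsf3, an SR protein that controls its own poison exon, had 0.0218 and 0.0264 against 0.0196 and 0.0172 (-0.47 ± 0.19, adjusted p = 0.873). With control replicate 2 left out, 4 members (Lsm6, Lsm10, Snrpb2 and Srsf5) and 3.93% of all genes were called.

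In the transgene cells Srsf6 was the member with an unadjusted p below 0.05, between the clones with IAA. It had 0.00973 and 0.00623 intron counts per exon count in wtSRCAP and 0.00585 and 0.00227 in cdSRCAP, from 22 to 69 intron counts (-1.37 ± 0.50, edgeR adjusted p = 0.998). Prpf6, a tri-snRNP bridging protein, had 0.154 and 0.137 in wtSRCAP without IAA and 0.0924 and 0.0852 with IAA (-0.51 ± 0.27, adjusted p = 1.00). In cdSRCAP its controls, 0.218 and 0.0883, spanned the IAA values of 0.147 and 0.156.

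The intron columns of LG1 were also tested by themselves under the looser rule. Fitted with the whole sorted table, 5 of 58 members were called with IAA, beside 3.94% of all genes, 4 lower (Prpf6, Snrpb2, Prpf40b and Lsm7) and Snrpa1 higher. Snrpa1 had 20 intron counts in 1 IAA library and 0 in the other LG1 libraries. That fit shares its scaling and spread with the EG1 columns, which also hold exonic reads. With the LG1 libraries fitted alone, 1 of 55 members was called, Snrpb2, beside 2.62% of all genes, at -1.18 ± 0.27 (edgeR unadjusted p = 0.00384, adjusted p = 1.00). No member had an adjusted p below 0.05 in either fit.

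A pair of PRPF genes is described from the intron columns of the SYAT time course, named after their values were seen. Those columns also hold exonic reads, so the values cannot be read as a change of intronic RNA. At an unadjusted p below 0.05 by edgeR, 2, 2, 8 and 2 of 56 members passed there at 2, 4, 6 and 8 h. The shares of all genes were 5.13%, 9.5%, 14.5% and 13.5%, and no member was called. Prpf18 had 515 and 388 normalised intron counts in control, 216 and 145 at 2 h, 176 and 154 at 4 h, 118 and 123 at 6 h and 131 and 184 at 8 h. All 8 IAA libraries lay below both controls, with log2 fold changes of -1.33 ± 0.28, -1.45 ± 0.28, -1.91 ± 0.29 and -1.52 ± 0.28 (edgeR adjusted p = 0.537, 0.218, 0.107 and 0.125). In the tables with clean intron columns its log2 fold changes with IAA were -0.32 in CGR8, -0.52 in LG1, -0.15 in wtSRCAP and -0.66 in cdSRCAP.

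Prpf31, which holds the U4/U6.U5 tri-snRNP together, had 0 intron counts in both SYAT controls. It had 0 and 35 at 2 h, 36 and 199 at 4 h, 165 and 255 at 6 h and 179 and 222 at 8 h. The edgeR adjusted p-values were 0.923, 0.262, 0.121 and 0.138, and no fold is given against a control of 0. It had 0 intron counts in every library of the other tables. Its normalised exon counts barely moved, at 2086 and 2467 in SYAT control and 2446 and 2420 at 8 h (0.10, adjusted p = 0.819).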

How the data were processed

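Nuclear RNA of mouse ES cells was sequenced in biological duplicates with a strand-specific kit and paired 75-base reads. Per the paper's methods, the authors mapped reads to mm10 with STAR and used featureCounts to count reads on GENCODE vM25 exons and on introns, taken as gene bodies minus exons. How multi-mapped reads were treated is not given in the sources used here. The deposited values used here are raw counts per gene in 4 tables. The authors' DESeq2 result tables (fold changes and p-values of intron counts) were not used.

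Gene types, coordinates and exon lengths came from GENCODE vM21, which holds 54349 of the 55401 gene IDs in the same version and 55141 without regard to version. Each table was fitted on its own with edgeR 4.0.16 in R 4.3.3 (limma 3.58.1), with TMM scaling, genes kept by expression within groups (minimum count 10, minimum total 15), and the quasi-likelihood test with Benjamini-Hochberg adjustment over all genes kept. Normalised counts are scaled to the geometric mean of the effective library sizes of a table. Intron per exon ratios were fitted on both kinds of count jointly, with the library as a block and the interaction tested. Scripts were tested on simulated data. Alternatives were DESeq2 1.42.0, other scaling, no count filter, a replicate block, fits of the groups compared alone and leaving out each library. Library totals set the precision, and members with few reads have wide errors.

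Same-numbered samples were compared by the correlation of their deviations from group means. It was 0.372 to 0.586 in the sorted table and 0.259 to 0.376 in the wtSRCAP and cdSRCAP table, so their numbers were treated as pairs and the blocked value stands in the report where it changed a call. The main design has no replicate block. The design formula of the study's own test is not given in the sources used here.

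Genes named in a comparison are the 3 with the smallest p in each direction (2 for the intron per exon ratio), with others named where said. The values of 1 member are not reported here, and it is left out of the plot of levels, while counts and medians include it. The members, lists and rules were chosen with earlier results of these data known. The lists of other spliceosome genes, splicing regulators, snRNP assembly genes and cell markers were written from general knowledge. The fits of genes and lists without a library that stands apart, and the fit of the LG1 intron columns alone, were added after the data were seen.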

Additional observations from a re-analysis of the deposited data

Results flagged for a closer look

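Lsm10 took opposite, non-overlapping sides with 1 h of IAA in the sorted phases, at a log2 fold change of 0.13 in EG1 and -0.12 in LG1, a difference of -0.249 (edgeR interaction, unadjusted p = 0.281). For 4 h of IAA in CGR8 and in SYAT, 4 members had both libraries of 1 line on the opposite side from both libraries of the other, and none of these differences was tested because the lines are in separate tables. The log2 fold change in SYAT minus that in CGR8 was -0.7015 for Snrpb2 (-0.19 against 0.51), 0.3695 for Srsf2 (0.07 against -0.30), -0.7482 for Sf3b6 (-0.10 against 0.65) and -0.6651 for Lsm10 (-0.36 against 0.30). None of these members was called in either line. They are named because they show this pattern, and the share of all genes that show it was not counted.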

How the results depend on the processing

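With 2 samples a group, the depth of these libraries limits calls to large changes, and members with few reads, Srsf12 and U2af1l4 above all, have wide errors. Of the recomputed numbers of called members, 186 stayed at 0 and 15 were above 0. With a replicate block in edgeR these were 1 member each in CGR8 (Snrpb2), SYAT at 6 h (Srsf12), LG1 against EG1 control (Prpf40b) and IAA in wtSRCAP (Prpf39). The shares of all genes called there were 2.47%, 4.29%, 7.31% and 3.2%. The numbers pair the samples in the sorted and transgene tables. In CGR8 the correlation was 0.0736. In the SYAT course it was -0.0359 to 0.0623 for pairs with the 6 h group, which holds the library that stands apart. The other SYAT pairs had 0.267 to 0.589, so numbers may mark pairs there too, although SYAT was not treated as paired. The replicate block changed no other call of the members. With no filter on low counts 1 member was called in CGR8 (Sf3b6), 1 in SYAT at 6 h (Srsf12) and 2 over all SYAT times (Lsm4 and Srsf12), where 1.26%, 2.47% and 1.92% of all genes were called. DESeq2's Wald test called 1 in SYAT at 6 h, beside 3.37% of all genes. DESeq2 with the replicate block and shrinkage called 1 there (5.5% of all genes) and 1 for IAA in wtSRCAP (3.87%). Leaving out 1 library gave 0 to 7 in CGR8, 0 to 20 in SYAT at 6 h, 0 to 12 over all SYAT times and 0 to 4 for the intron per exon ratio in CGR8, the highest each time without CGR8 control replicate 2 or SYAT 6 h replicate 1, and 0 in all other comparisons. The cause was not tested. Shrinkage was not applied to interactions.

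Of 1090 recomputed values of named genes, 31 took the opposite sign, each on leaving out 1 library. As ranges of log2 fold change over the libraries left out, in EG1 with IAA Lsm3 gave -0.0657 to 0.46, Lsm1 -0.30 to 0.0158 and Srsf4 -0.17 to 0.0303. In LG1 with IAA Snrpg gave -0.0209 to 0.26, Sf3b5 -0.0496 to 0.36 and Prpf39 -0.35 to 0.0558. In LG1 against EG1 control Lsm2 gave -0.0160 to 0.43, Srsf11 -0.22 to 0.00792 and Lsm5 -0.56 to 0.0330. In the interaction of the phases Lsm1 gave -0.00637 to 0.33 and Srsf12 -0.67 to 0.0392. In cdSRCAP against wtSRCAP control Prpf38a gave -0.0839 to 0.27, Sf3b3 -0.26 to 0.42, U2af1 -0.27 to 0.41 and the Snrpd2 intron per exon ratio -0.0752 to 3.50. With IAA in wtSRCAP Lsm4 gave -0.0235 to 0.80. Between the clones with IAA Srsf6 gave -0.16 to 0.48 and Srsf10 -0.19 to 0.51, and in their interaction Snrpa1 gave -0.52 to 0.00613 and Prpf18 -0.0628 without wtSRCAP 4 h replicate 1. Without SYAT 6 h replicate 2 Lsm4 gave -0.30 at 6 h, and without CGR8 control replicate 1 Srsf12 gave -0.17 with IAA. With IAA in cdSRCAP Prpf39 gave -0.63 to 0.0355, Lsm5 -0.0906 to 2.65, Srsf12 -1.61 to 0.59 and the Prpf6 intron per exon ratio -0.0630 to 0.60. The members' median of LG1 against EG1 control was -0.88 in the intron columns, where EG1 alone also holds exonic reads. The numbers 0.0596 (CGR8), 0.0759 to 0.296 (transgene cells), 0.141 to 0.638 (sorted) and 0.00135 to 0.639 (SYAT) are the correlations of same-numbered samples in the intron columns.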

Other observations

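Lsm4 was highest in the library with the lowest mitochondrial share in each of 3 tables. It is named because it shows this pattern, and the share of all genes that show it was not counted. It had 6192 normalised exon counts in SYAT 6 h replicate 2 against 2527 in replicate 1, 12578 in CGR8 control replicate 1 against 9072 in replicate 2, and 5609 in wtSRCAP 4 h replicate 1 against 3161 in replicate 2. The cause was not tested.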
